A study of Mus musculus with 16 samples.

Results

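Genes whose enzymes oxidise ethanol, clear acetaldehyde or use the resulting acetate were followed in RNA-seq of mouse liver. They were Adh1, Adh4, Adh5, Cyp2e1, Cat, Aldh2, Aldh1a1, Aldh1b1, Acss2 and Acss3. These 10 were selected by gene symbol, and all 10 were found among the 35275 gene IDs of the table and among the 11298 genes that passed the filter on low values. The study compared wild-type mice (WT) with mice lacking Zfp36l1 in the liver (LKO, labelled L1 LKO) on a control or an ethanol-containing diet. There were 4 libraries of total liver RNA in each of the 4 groups: WT control, WT ethanol, LKO control and LKO ethanol. The labels give neither the promoter that drives the deletion nor the strain, sex, age, ethanol dose or feeding time. Each library has its own code in its title, and nothing else says that it came from a separate animal, so p-values measure the spread between these samples.

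In liver, most ethanol is oxidised to acetaldehyde in the cytosol by alcohol dehydrogenases, with a further share oxidised by the microsomal P450 CYP2E1 and a small one by catalase in peroxisomes. Acetaldehyde is oxidised to acetate, chiefly by the mitochondrial aldehyde dehydrogenase ALDH2, and acetate is joined to coenzyme A by acetyl-CoA synthetases. CYP2E1 sits mainly in hepatocytes around the central vein, and its protein is known to accumulate under ethanol largely because it is broken down more slowly. ZFP36L1 is an RNA-binding protein that binds AU-rich elements in 3′ untranslated regions and speeds the decay of the mRNA.

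The numbers 1 to 4 within a group follow the order of the records and only name the libraries. Zfp36l1 itself was at 15.8 ± 6.55 FPKM (fragments per kilobase, scaled to the depth of the library; SD, n = 8) in WT livers and at 1.16 ± 0.442 FPKM (SD, n = 8) in LKO livers, and the genotypes did not overlap (lowest WT library 9.30 FPKM, highest LKO library 1.76 FPKM). Hepatocyte markers were abundant in every library, with a summed level of 45222 to 77971 FPKM over 7 genes. WT ethanol library 2 stood apart: it held 9885008 reads against 19069835 to 24768503 in the others, 22.5% of its reads were mitochondrial against 3.64% to 6.97%, and its median rank correlation with the other libraries was 0.773 against at least 0.931. Its summed marker levels were also outside the range of the other 15 libraries for pericentral hepatocytes (314 against 639 to 3298 FPKM) and periportal hepatocytes (499 against 2063 to 6596 FPKM). The same held for endothelial cells (11.9 against 34.3 to 97.8 FPKM), stellate cells (16.3 against 36.6 to 152 FPKM) and cholangiocytes (75.0 against 10.8 to 28.5 FPKM). The part of these differences in the enzymes' values was not tested, and for many enzymes the ethanol change is given with and without that library. The other 15 libraries also split within every group along a component that held 40.0% of their within-group variation, with libraries 1 and 2 on one side and libraries 3 and 4 on the other (in WT ethanol, library 1 alone on the first side). The labels give no batch for this split. Where an enzyme moved with it, values on each side are given, and changes from a fit with the side as a term and without WT ethanol library 2 are quoted as side-adjusted. The side was read from the spread of these same values, the enzymes included, so the changes from that fit are given as a description with no test.

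The 3 alcohol dehydrogenases lie in 1 cluster on mouse chromosome 3, all on the plus strand (GRCm38): Adh1 at chr3:138260991-138290698, Adh4 at chr3:138415466-138430892 and Adh5 at chr3:138443093-138455499. Their promoter windows are shown because Adh4 was called for the diet in both genotypes and Adh1, of the same cluster, in neither. That of Cyp2e1 is shown because it was the most abundant of the 10 enzymes by its mean over the 16 libraries. Each window runs from 250 bases before to 50 bases after a RefSeq transcription start (GRCm38.p6), 5′ to 3′ on the gene's strand. Capitals mark 4 motifs searched on both strands. These were the TATA box, as TATAAA, the CCAAT box, the nuclear receptor half-site AGGTCA and the GC box, as GGGCGG. A match on the opposite strand appears as the reverse complement, and overlapping matches were counted separately. The Adh1 start used by RefSeq lies inside the longer gene model given above.
Adh1, chr3:138277335-138277634: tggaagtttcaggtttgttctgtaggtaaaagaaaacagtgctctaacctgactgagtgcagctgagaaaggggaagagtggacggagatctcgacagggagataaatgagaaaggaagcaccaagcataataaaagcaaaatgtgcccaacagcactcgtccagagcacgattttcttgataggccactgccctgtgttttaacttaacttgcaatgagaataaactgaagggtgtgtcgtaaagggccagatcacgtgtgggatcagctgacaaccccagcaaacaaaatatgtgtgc
Adh4, chr3:138415247-138415546: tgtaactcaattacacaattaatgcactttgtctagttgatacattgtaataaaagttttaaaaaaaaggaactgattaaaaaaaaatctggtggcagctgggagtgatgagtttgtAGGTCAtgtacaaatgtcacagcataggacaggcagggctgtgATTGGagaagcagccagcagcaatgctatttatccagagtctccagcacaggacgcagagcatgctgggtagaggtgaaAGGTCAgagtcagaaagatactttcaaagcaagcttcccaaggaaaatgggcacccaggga
Adh5, chr3:138442843-138443142: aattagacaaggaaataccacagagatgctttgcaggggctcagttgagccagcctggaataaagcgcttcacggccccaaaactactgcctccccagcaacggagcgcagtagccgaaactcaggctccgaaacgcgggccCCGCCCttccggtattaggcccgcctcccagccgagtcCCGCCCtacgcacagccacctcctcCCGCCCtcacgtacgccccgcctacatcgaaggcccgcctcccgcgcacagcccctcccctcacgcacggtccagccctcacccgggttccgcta
Cyp2e1 (gene at chr7:140763739-140774987, plus strand), chr7:140763569-140763868: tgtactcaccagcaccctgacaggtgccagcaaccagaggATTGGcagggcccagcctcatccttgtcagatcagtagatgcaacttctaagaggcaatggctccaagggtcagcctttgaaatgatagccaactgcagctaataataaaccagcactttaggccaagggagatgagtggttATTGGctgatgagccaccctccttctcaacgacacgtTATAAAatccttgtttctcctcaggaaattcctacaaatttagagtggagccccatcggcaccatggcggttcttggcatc

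The Adh4 window held AGGTCA, the half-site read by many nuclear receptors, at 133 and at 11 bases before the start, a motif found in 16.3% of 32851 promoter windows. It also held CCAAT on the opposite strand, 90 bases before the start (37.4% of windows). The Adh1 window held none of the 4 motifs. RefSeq gives Adh5 a second start upstream, and the window shown, at the start of the gene model, held GGGCGG 3 times on the opposite strand (35.7% of windows have it at least once) and was 65% G and C, against a median of 52.7% over all windows. The Cyp2e1 window held TATAAA at 31 bases before the start (13.6% of windows) and CCAAT on the opposite strand at 68 and 210 bases before it. Promoter windows were found for 8 of the 10 enzymes, and a motif match is a description of the letters only.

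A heptamer bound by the ZFP36 proteins, TATTTAT in DNA letters, was counted in the 3′ untranslated regions because these bear on the deleted gene. It was present in the annotated transcript of 1 of the 10 enzymes, against 29% of 10560 genes. That one was Acss3, with 1 site 1461 bases after the stop codon at chr10:106934686-106934714 on the minus strand (GRCm38), printed with the heptamer in capitals. The 3′ untranslated region of Fgf21, the hepatokine named in the study's title, held 4 such sites within 134 bases, and its first is printed for comparison, at chr7:45613961-45613989 on the minus strand.
Acss3: aaagtatactgTATTTATtgaacctctga
Fgf21: gggtttccactTATTTATtacgggtattt
The 3′ untranslated regions of Adh1 (139 bases), Adh4 (143 bases) and Cyp2e1 (245 bases) are short beside the median of 1106 bases.

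**Figure D1:**
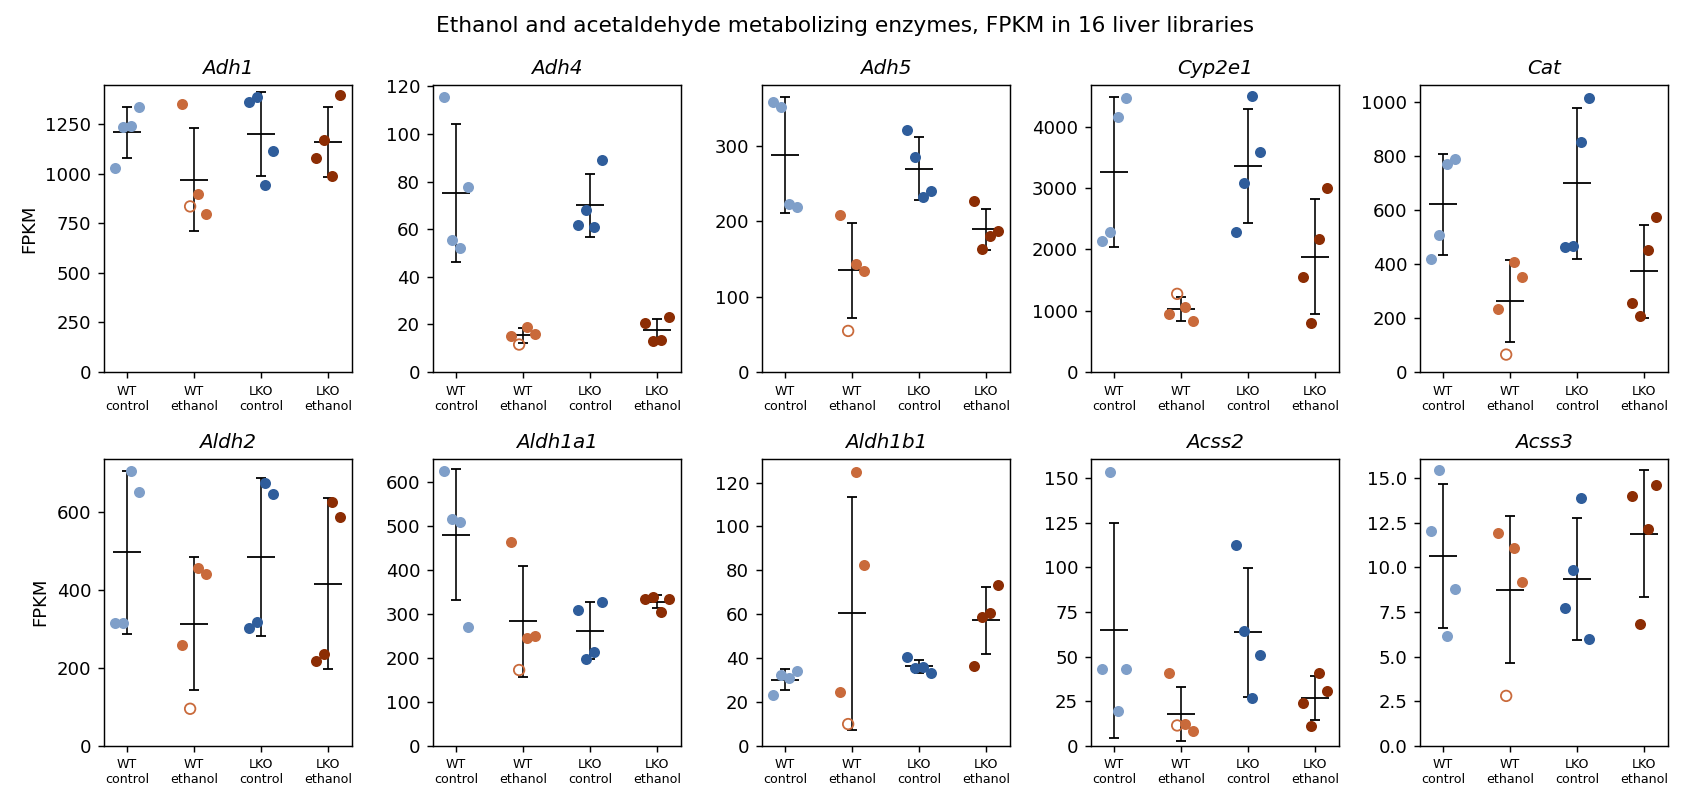
FPKM of the 10 enzymes (vertical axes, linear from 0) in the 4 groups (horizontal axes), 1 point per library, with the mean and SD of the 4 libraries in black and WT ethanol library 2 as an open point. All 8 Adh4 values on ethanol (11.5 to 23.0 FPKM) lie below all 8 on the control diet (52.2 to 115 FPKM), and Adh1 lies between 795 and 1397 FPKM throughout.

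FPKM is a value per length, so the enzymes can be ranked by level. Over the 16 libraries the mean was 2384 FPKM for Cyp2e1 and 1134 FPKM for Adh1, followed by Cat (490 FPKM), Aldh2 (428 FPKM), Aldh1a1 (338 FPKM) and Adh5 (220.2 FPKM). Aldh1b1 (46.0 FPKM), Adh4 (44.5 FPKM) and Acss2 (43.3 FPKM) followed, and Acss3 was lowest (10.2 FPKM). The order depended on the diet: by group mean, Adh4 was 7th of the 10 in both control groups and 9th in both ethanol groups, and Aldh1b1 was 9th and 7th. Cat was 3rd in both control groups, 5th in WT ethanol and 4th in LKO ethanol, while Aldh2 was 4th on the control diet and 3rd on ethanol. Without WT ethanol library 2, Adh1 (1015 FPKM) was above Cyp2e1 (944 FPKM) in WT ethanol. The ranges of neighbours in this order overlapped between libraries. Cyp2e1 was among the 74 most abundant genes in every library and reached place 12 in LKO control library 3. The fewest reads behind any value were 69, for Acss3 in WT ethanol library 2.

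The first comparison asked what the ethanol diet did to these enzymes in WT livers and in livers lacking Zfp36l1. Adh4 and Cyp2e1 fell in WT livers, Adh4 fell in LKO livers, and no enzyme rose in either genotype. Over both genotypes, as the mean of the 2 responses, 5 of the 10 enzymes fell: Adh4, Adh5, Cyp2e1, Cat and Acss2. Calls are at an adjusted p under 0.05 in limma on log2(FPKM + 1), with Benjamini-Hochberg adjustment over all 11298 genes. By that rule 1.59% of all genes fell in WT, 0.257% in LKO and 3.19% over both genotypes, while 2.58%, 0.168% and 4.59% rose. The median change of the 10 enzymes over both genotypes was -0.70 on the log2 scale, beside 0.02 over all genes, and 9 of the 10 changes were negative. Without WT ethanol library 2 the median was -0.48, beside 0.11 over all genes, with 8 negative. With libraries weighted by their estimated quality it was -0.42, beside 0.14, with 7 negative. Because liver tissue was sequenced in bulk, fewer cells of a type and less RNA per cell cannot be told apart.

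Adh4 encodes a class II alcohol dehydrogenase, which has a high Km for ethanol and also acts on retinol. In WT livers it was at 115, 55.5, 52.2 and 77.6 FPKM on the control diet (libraries 1 to 4) and at 14.98, 11.5, 18.8 and 16.2 FPKM on ethanol. In LKO livers it was at 61.8, 68.0, 60.9 and 89.2 FPKM on the control diet and at 20.4, 13.1, 13.6 and 23.0 FPKM on ethanol. Every ethanol library was below every control library in both genotypes, a separation over all 16 libraries that 0.814% of all genes showed in the same direction. The change was -2.16 on the log2(FPKM + 1) scale in WT (SE 0.29, adjusted p = 0.0012) and -1.96 in LKO (SE 0.29, adjusted p = 0.0056). By p-value Adh4 was 8th in WT and 6th in LKO of the 11246 tested genes that have a symbol. Without WT ethanol library 2 the WT change was -2.04 (SE 0.27, adjusted p = 0.0012). The responses differed between genotypes by 0.20 (95% interval -0.66 to 1.06), and the test of that difference was not passed (adjusted p = 0.94).

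Adh1, the class I enzyme that carries most hepatic ethanol oxidation at low concentrations, did not pass the test in any comparison. Its mean was 1209 ± 128 FPKM in WT control, 969.8 ± 258 FPKM in WT ethanol, 1200.4 ± 211 FPKM in LKO control and 1158 ± 175 FPKM in LKO ethanol (SD, n = 4 each). The ranges of all groups overlapped. Over both genotypes its change was -0.20 with a 95% interval of -0.56 to 0.17 on the log2 scale (adjusted p = 0.57), so the interval does not reach the size of the Adh4 change.

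Adh5 encodes the class III enzyme, which is best known as the glutathione-dependent formaldehyde dehydrogenase and acts weakly on ethanol. In WT livers it was at 357, 352, 223 and 219 FPKM on the control diet and at 207, 54.5, 143 and 133 FPKM on ethanol. The LKO livers had 321, 285, 232 and 239 FPKM on the control diet and 227, 162, 180.5 and 187 FPKM on ethanol. The diets did not overlap within either genotype, a separation in the same direction that 4.45% of all genes showed in WT and 4.14% in LKO. Over both genotypes Adh5 fell by 0.85 (SE 0.24, adjusted p = 0.039), and its change was -0.66 (SE 0.16, adjusted p = 0.0088) without its lowest library, WT ethanol 2. In WT alone the change was -1.20 (adjusted p = 0.058) with all libraries. It was -0.82 (adjusted p = 0.038) without WT ethanol library 2, a fit in which 2.24% of all genes fell in WT. In LKO livers the change was -0.51 (adjusted p = 0.76). The side-adjusted changes were -0.75 in WT and -0.51 in LKO. In the voom fit on recovered reads, where 2.61% of all genes fell in WT, Adh5 was called there (adjusted p = 0.027).

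As shares of the summed FPKM of the 3 dehydrogenases, Adh1 made up 76.8% ± 6.37 in WT control and 86.9% ± 3.94 in WT ethanol (SD, n = 4 each). In LKO livers its share was 77.8% ± 1.45 on the control diet and 84.7% ± 2.75 on ethanol. The share of Adh4 went from 4.82% ± 2.01 to 1.43% ± 0.387 in WT and from 4.64% ± 1.18 to 1.27% ± 0.261 in LKO. These shares are descriptions of the same values and were not tested.

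Cyp2e1, the ethanol-inducible P450 of the microsomal oxidising system, was lower at the mRNA level on ethanol. In WT livers it was at 2142, 2282, 4164 and 4468 FPKM on the control diet and at 941, 1275, 1057 and 833 FPKM on ethanol. LKO libraries were at 2279, 3085, 4499 and 3587 FPKM on the control diet and at 1547, 803, 2178 and 3010 FPKM on ethanol. The diets were apart in WT and overlapped in LKO, where ethanol libraries 3 and 4 were the highest on that diet. The change was -1.61 in WT (SE 0.38, adjusted p = 0.024) and -0.95 in LKO (SE 0.38, adjusted p = 0.41), and over both genotypes it was -1.28 (SE 0.27, adjusted p = 0.0071). Leaving out WT ethanol library 2, the change was -1.72 in WT (adjusted p = 0.014) and -1.33 over both genotypes (adjusted p = 0.0030). The side-adjusted changes were -1.84 in WT and -0.95 in LKO. The WT call was lost without WT control library 3, WT control library 4 or WT ethanol library 4 (adjusted p up to 0.091), with no filter on low values (adjusted p = 0.078) and in the voom fit on recovered reads (adjusted p = 0.060). The LKO response differed from the WT response by 0.66 (95% interval -0.47 to 1.78, adjusted p = 0.93). With 1 library left out, this difference ranged from 0.38 (without LKO ethanol library 4) to 1.01 (without LKO ethanol library 2). Without the same libraries the LKO change was -1.23 and -0.59.

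Markers of the pericentral zone, where Cyp2e1 is mainly expressed, were examined beside it. In WT livers 2 of 7 fell: Glul, glutamine synthetase, with a change of -1.93 (adjusted p = 0.023), and Rgn, regucalcin, with a change of -2.95 (adjusted p = 0.014), where 1.59% of all genes fell. These changes were -1.87 and -2.43 without WT ethanol library 2, both called. None of the 7 passed the test in LKO livers, where 4 of the 7 changes were positive and the median was 0.29, with -0.72 for Glul, -1.22 for Rgn and 1.71 for Cyp2c29 (adjusted p = 0.17). Cyp2c29, named after its values were seen, was the 1 of 7 that passed as higher in LKO without WT ethanol library 2 (adjusted p = 0.024), a fit in which 2.25% of all genes rose there. The summed level of the 7 markers was 1876 to 2399 FPKM in WT control, 314 FPKM in WT ethanol library 2 and 639 to 2123 FPKM in the other WT ethanol libraries. In LKO livers the sum was 2233 to 2545 FPKM on the control diet and 1619 to 3298 FPKM on ethanol. No marker of the list was at 0 in all libraries. The part of these markers in the Cyp2e1 result was not tested.

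Catalase, encoded by Cat (chr2:103453849-103485160, minus strand), breaks down hydrogen peroxide in peroxisomes and can use it to oxidise ethanol. In WT livers it was at 419, 506, 771 and 791 FPKM on the control diet and at 233, 64.7, 407 and 351 FPKM on ethanol. In LKO livers it was at 462, 467, 853 and 1016 FPKM on the control diet and at 257, 207, 454 and 576 FPKM on ethanol. The diets were apart in WT and overlapped in LKO. Cat fell by 1.20 over both genotypes (SE 0.36, adjusted p = 0.048), and its change was -0.92 (SE 0.26, adjusted p = 0.022) with WT ethanol 2 removed. Neither genotype alone passed the test with all libraries (-1.47 with adjusted p = 0.11 in WT, -0.93 with adjusted p = 0.63 in LKO), and the WT change was -0.90 (adjusted p = 0.15) once WT ethanol 2 was removed. The voom fit called Cat in WT (adjusted p = 0.049). The side-adjusted changes were -1.05 in WT and -0.93 in LKO.

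**Figure D2:**
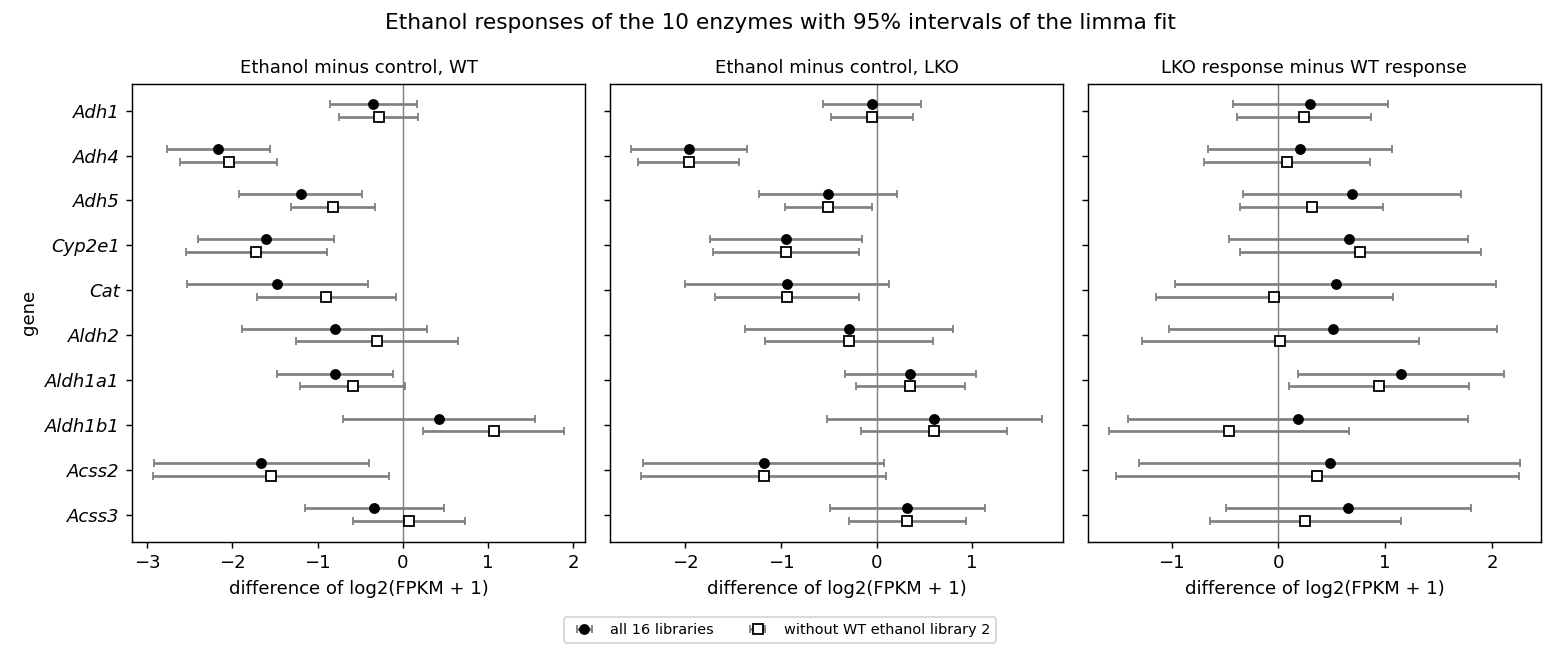
Ethanol response of each enzyme in WT (left) and LKO livers (middle) and the difference between the responses (right), as differences of log2(FPKM + 1) with 95% intervals of the limma fit, from all 16 libraries (filled circles) and without WT ethanol library 2 (open squares). Adh4 lies near -2 in both genotypes, and the intervals of the difference span 0 for all enzymes but Aldh1a1 (0.18 to 2.11 with all libraries).

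Acetaldehyde is cleared by aldehyde dehydrogenases, of which 3 were followed. With all 16 libraries weighted equally none of them passed the test in either genotype. A limma fit that weighted each library by its estimated quality (array weights) called 2 of them in WT, Aldh1a1 lower and Aldh1b1 higher, where 7.04% of all genes fell and 31.3% rose. Aldh2, the mitochondrial enzyme with the highest affinity for acetaldehyde (chr5:121566027-121593824, minus strand), was at 316, 315, 704 and 650.4 FPKM in WT control and at 259, 95.02, 457 and 441 FPKM in WT ethanol. The LKO livers had 303, 318, 676 and 646 FPKM on the control diet and 219, 235, 625 and 588 FPKM on ethanol. Libraries 3 and 4 were above libraries 1 and 2 in all 4 groups, and the diets overlapped in both genotypes. The change over both genotypes was -0.54 (95% interval -1.31 to 0.23, adjusted p = 0.43), and -0.30 (adjusted p = 0.54) without WT ethanol library 2. In WT livers it was -0.80 (adjusted p = 0.42) with all libraries and -0.31 (adjusted p = 0.71) without that library. The side-adjusted changes were -0.39 over both, -0.49 in WT and -0.29 in LKO.

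Aldh1a1 (chr19:20492715-20643465, plus strand) encodes a cytosolic aldehyde dehydrogenase that also makes retinoic acid from retinal. It was at 625, 516, 508 and 271 FPKM in WT control and at 464, 172, 246 and 249.5 FPKM in WT ethanol. LKO libraries were at 309, 198, 214 and 326 FPKM on the control diet and at 334, 337, 305 and 333 FPKM on ethanol. WT control libraries 1 to 3 stood above every LKO library, while WT control library 4 lay among them. The ethanol change was -0.79 in WT (adjusted p = 0.18; -0.92 with adjusted p = 0.0047 with array weights) and 0.35 in LKO (adjusted p = 0.88). The difference between these responses was 1.15 (SE 0.46, 95% interval 0.18 to 2.11), with an unadjusted p of 0.023 and an adjusted p of 0.93. Aldh1a1 was 150th of 11246 genes by that p-value.

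Aldh1b1 (chr4:45799022-45804604, plus strand) encodes another mitochondrial enzyme able to oxidise acetaldehyde. It was at 23.2, 32.3, 30.8 and 34.2 FPKM in WT control and at 24.6, 9.90, 125 and 82.2 FPKM in WT ethanol. In LKO livers it was at 40.4, 35.3, 35.8 and 33.3 FPKM on the control diet and at 36.2, 58.7, 60.5 and 73.2 FPKM on ethanol. In each genotype 2 or more ethanol libraries were above all control libraries, and WT ethanol library 2 was the lowest of all 16. With all libraries the change was 0.43 in WT (adjusted p = 0.70) and 0.52 over both genotypes (SE 0.38, adjusted p = 0.48). The value depended on single WT ethanol libraries. Over both genotypes it was 0.25 without WT ethanol library 3 and 0.84 without WT ethanol library 2 (SE 0.26, adjusted p = 0.037), a fit in which Aldh1b1 was the 1 enzyme of 10 that rose, beside 14.7% of all genes that rose and 5.77% that fell. In WT the same fits gave -0.11 and 1.07 (adjusted p = 0.096 for the latter). Array weights called Aldh1b1 higher in WT (1.84, adjusted p = 9.40e-05) and over both genotypes (1.21, adjusted p = 0.0002, where 28% of all genes rose).

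As shares of the summed FPKM of the 3 aldehyde dehydrogenases, Aldh1b1 was at 3.05% ± 0.710 in WT control and 8.15% ± 5.75 in WT ethanol (SD, n = 4 each). In LKO livers its share was 4.94% ± 1.58 on the control diet and 7.23% ± 1.499 on ethanol. Aldh2 and Aldh1a1 together made up the rest, with Aldh2 between 45.3% and 60.4% of the sum as group means.

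Acss2 (chr2:155517948-155585724, plus strand), the cytosolic and nuclear acetyl-CoA synthetase that feeds acetate into lipid synthesis and histone acetylation, ranged from 8.08 to 153 FPKM. It was at 43.2, 153, 19.2 and 43.3 FPKM in WT control and at 40.6, 11.4, 12.1 and 8.08 FPKM in WT ethanol. The LKO livers had 113, 64.4, 26.7 and 51.0 FPKM on the control diet and 23.9, 11.3, 40.7 and 30.7 FPKM on ethanol. The diets overlapped in both genotypes. Over both genotypes Acss2 fell by 1.42 (SE 0.42, adjusted p = 0.048), and its change was -1.36 (SE 0.44, adjusted p = 0.041) with WT ethanol 2 removed. The change was -1.66 in WT (adjusted p = 0.13, and -1.55 with adjusted p = 0.15 without WT ethanol library 2) and -1.18 in LKO (adjusted p = 0.60), neither passing the test. In WT it was called with array weights (-2.09, adjusted p = 0.0030), where 7.04% of all genes fell. It was also called there without WT ethanol library 1 (-2.13, adjusted p = 0.037), where 2.41% of all genes fell.

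Acss3 (chr10:106933517-107123668, minus strand), a mitochondrial acyl-CoA synthetase that uses propionate, was between 2.80 and 15.5 FPKM in all libraries. Its group means were 10.6 ± 4.03 FPKM in WT control, 8.74 ± 4.13 FPKM in WT ethanol, 9.36 ± 3.41 FPKM in LKO control and 11.9 ± 3.54 FPKM in LKO ethanol (SD, n = 4 each). The change over both genotypes was -0.0039 with a 95% interval of -0.58 to 0.57 (adjusted p = 0.9965). Lowest was WT ethanol library 2, and without it the change was 0.20 (95% interval -0.25 to 0.65).

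Of the 5 enzymes called over both genotypes, Adh4 and Cyp2e1 were called in each of the 16 fits that left out 1 library. The calls of Adh5, Cat and Acss2 were close to the threshold: the fits that lost them numbered 11, 12 and 12, with adjusted p up to 0.086, 0.11 and 0.12. Their changes were negative in all 16 fits, the smallest being -0.66 for Adh5, -0.92 for Cat and -1.15 for Acss2. All 3 calls were also lost with no filter on low values and with equal sums. Cat was further lost with a pseudocount of 0.1 and with array weights (-0.57, adjusted p = 0.054), and Acss2 with a pseudocount of 0.1, quantile scaling and voom (adjusted p up to 0.058). Array weights called 5 enzymes over both genotypes, with Aldh1b1, which was higher, in place of Cat. That fit called 4147 of 11298 genes, against 879 with equal weights. Without WT ethanol library 1, 5 enzymes were called lower in WT (2.41% of all genes): Adh4, Adh5, Aldh1a1, Cyp2e1 and Acss2.

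The second comparison set LKO against WT livers on the same diet. On the control diet limma called 0 of 10 enzymes, with 1 at an unadjusted p under 0.05, and 0.00885% of all genes in either direction. A voom fit on recovered reads also called 0, with 0 at an unadjusted p under 0.05. The enzyme with the largest difference was Aldh1a1 (-0.84, SE 0.32, adjusted p = 0.9997, unadjusted p = 0.019). The other 9 lay between -0.16 and 0.27, with intervals as wide as -1.06 to 1.46 for Acss2 and as narrow as -0.53 to 0.49 for Adh1. On ethanol limma again called 0 of 10 enzymes (0.0797% of all genes), with 0 at an unadjusted p under 0.05. The voom fit called 0 enzymes and 0.0443% of all genes, with 1 enzyme at an unadjusted p under 0.05. All 10 differences were positive, with a median of 0.49 beside -0.03 over all genes, and without WT ethanol library 2 there were 8 positive ones with a median of 0.10, beside -0.23 over all genes. Marker lists moved in the same comparison: with all libraries the median difference was 0.48 over 7 hepatocyte markers (5 positive), 1.14 over 7 pericentral markers (7 positive), 0.68 over 7 periportal markers (6 positive) and -0.50 over 7 Kupffer and macrophage markers (6 negative), none of them called. Without WT ethanol library 2 these medians were 0.23, 0.90, 0.25 and -0.76. Their part in the enzymes' differences was not tested.

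For Cyp2e1 the difference between genotypes on ethanol was 0.74 with all libraries (95% interval -0.06 to 1.53, adjusted p = 0.46). With 1 library left out it ranged from 0.46 (without LKO ethanol library 4) to 1.09 (without LKO ethanol library 2), with adjusted p from 0.18 to 0.72, and it was 0.85 without WT ethanol library 2. It was at 1026 ± 189.6 FPKM in WT and at 1884 ± 937 FPKM in LKO livers (SD, n = 4 each), and the groups overlapped through LKO library 2 (803 FPKM). The side-adjusted difference was 0.97, and within the sides the difference was 0.24 on the side of libraries 1 and 2 and 1.45 on the side of libraries 3 and 4. In the test of the difference between the ethanol responses of the genotypes limma called 0 of 10 enzymes and 0% of all genes, with 1 enzyme, Aldh1a1, at an unadjusted p under 0.05. The voom fit also called 0 and had 1 enzyme at an unadjusted p under 0.05.

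**Figure D3:**
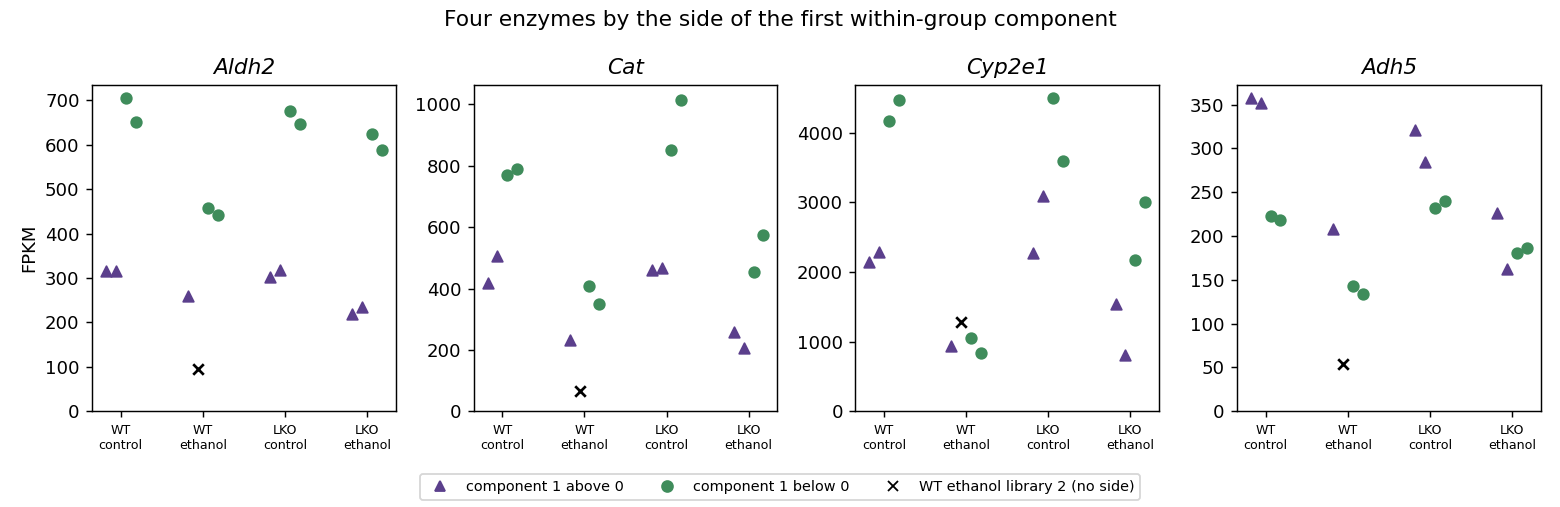
FPKM of Aldh2, Cat, Cyp2e1 and Adh5 (vertical axes, linear from 0) in the 4 groups, with triangles and circles for the sides of the first within-group component and a cross for WT ethanol library 2. Circles lie above triangles in every group for Aldh2 and Cat, and below them for Adh5 in 3 of 4 groups.

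Enzymes moved with the split between libraries in opposite ways. The mean on the side of libraries 3 and 4, divided by that on the other side, was 2.15, 1.74, 2.13 and 2.67 for Aldh2 in WT control, WT ethanol, LKO control and LKO ethanol. For Cat the same ratios were 1.69, 1.63, 2.01 and 2.22, and for Cyp2e1 they were 1.95, 1.004, 1.51 and 2.21. Adh5 went the other way with 0.623, 0.667, 0.778 and 0.944, while Adh4 kept no common direction (0.759 to 1.17). The component was computed from all genes kept, these enzymes included, so the ratios are a description with no test. Within each side the diet change kept its sign for Adh4, Adh5, Aldh2, Cyp2e1, Cat and Acss2 in both genotypes. Adh4 changed by -2.34 and -1.81 in WT and by -1.92 and -2.0 in LKO on the 2 sides. Cat changed by -0.98 and -1.04 in WT and, in LKO, by -1.01 and -0.86. Aldh2 changed by -0.28 and -0.59 in WT livers and by -0.45 and -0.12 in LKO livers. Aldh1b1 was uneven in WT, where it changed by -0.15 on the side of library 1 and by 1.62 on the side of libraries 3 and 4, and in LKO the values were 0.28 and 0.93. Acss2 was uneven in LKO, with -2.30 and -0.06. Cyp2e1 was also less even, with -1.23 and -2.20 in WT livers but -1.25 and -0.65 in LKO livers.

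The genes whose values followed an enzyme most closely within groups were named from Pearson's r of log2(FPKM + 1) after subtracting group means, over 3924 genes with a mean of at least 10 FPKM. All points share the libraries and their split, so r is a description. For Aldh2 these were Cpn2 (0.98), Ece1 (0.98) and Pcdh1 (0.97) over 16 libraries, and Hrg (0.99), Calr (0.97) and Cpn2 (0.97) over the 15 without WT ethanol library 2. For Cat they included Ece1 (0.97) and Uroc1 (0.97), and over 15 libraries Cyp2d22 (0.98), Pdxk (0.97) and Ece1 (0.97). For Cyp2e1 they were Cyp4f15 (0.88), Plg (0.84) and Lars2 (0.84), and over 15 libraries they included Adra1b (0.91) and Plg (0.90). Adh1 was followed by Cisd1 (0.83), Gsta3 (0.77) and Il11ra1 (0.73), and over 15 libraries by Cisd1 (0.86), Gsta3 (0.75) and Ces2a (0.73). Among the enzymes themselves, over 15 libraries, r was 0.95 between Aldh2 and Cat, 0.85 between Cat and Cyp2e1 and -0.73 between Aldh2 and Adh5. With all 16 libraries these values were 0.96, 0.42 and 0.15, so the last 2 depended on WT ethanol library 2.

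**Figure D4:**
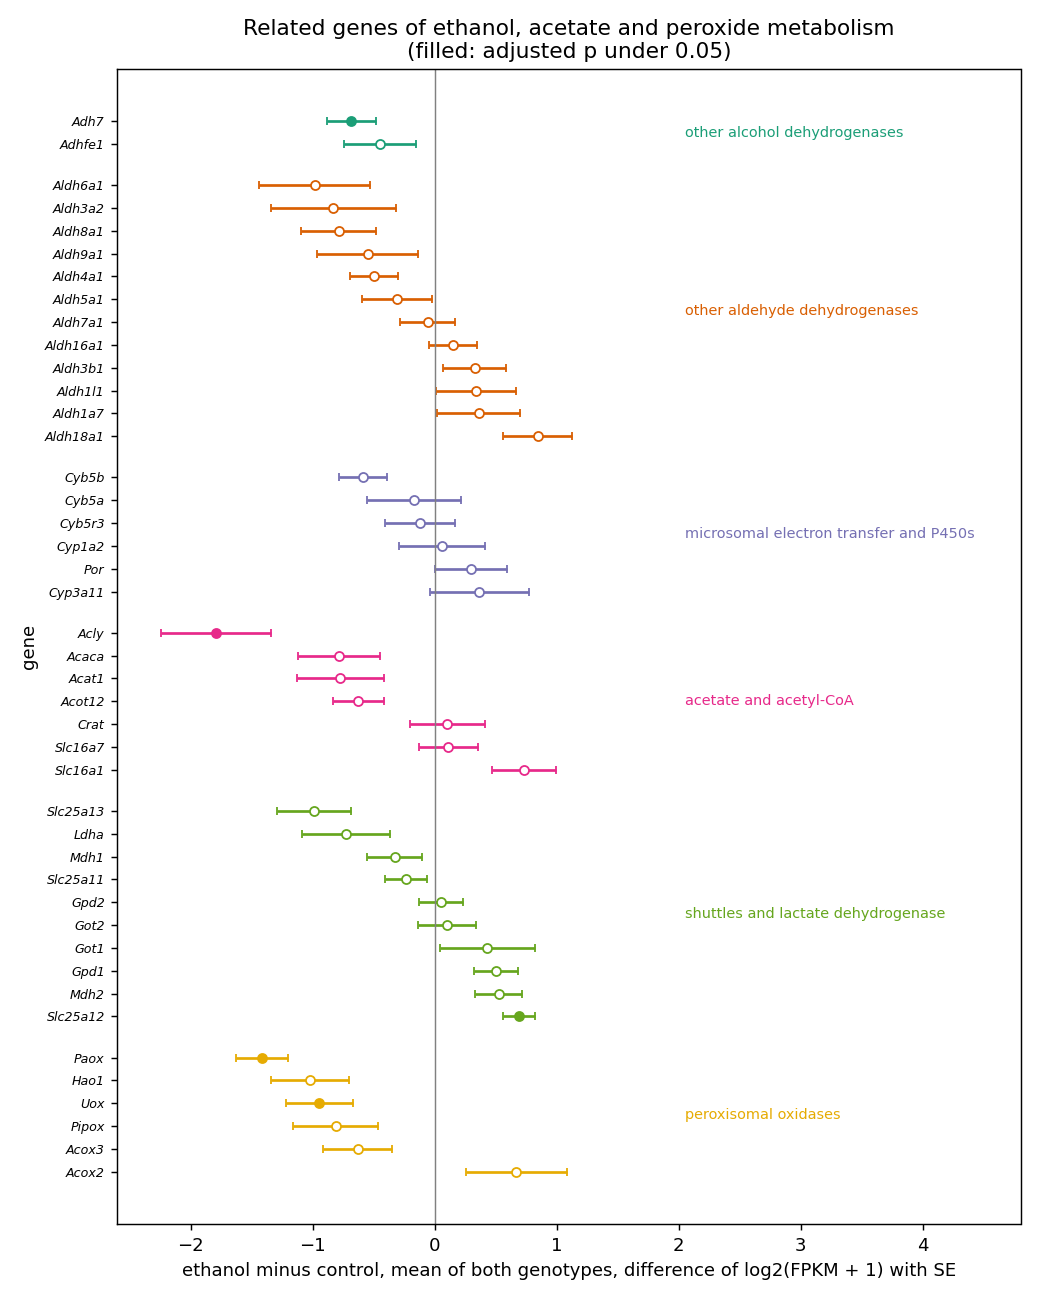
Mean ethanol response of both genotypes for related genes, grouped by list (colours), as a difference of log2(FPKM + 1) with its SE, filled where the adjusted p was under 0.05. The filled points are Adh7, Acly, Paox and Uox on the left of 0 and Slc25a12 on the right.

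Related genes were counted by lists. Of 4 other alcohol dehydrogenases 2 passed the filter, and Adh7, a class IV enzyme active on retinol, fell in WT from 12.4 ± 3.39 to 4.41 ± 1.26 FPKM (SD, n = 4 each; log2 change -1.31, adjusted p = 0.019, and -1.14 without WT ethanol library 2). In LKO livers Adh7 was at 5.35 ± 1.09 and 5.39 ± 2.44 FPKM. None of the 12 other aldehyde dehydrogenases tested passed the test in WT, in LKO or over both genotypes, and their median change over both was -0.18. None of the 6 genes of microsomal electron transfer and ethanol-oxidising P450s passed it either. Over both genotypes the change was 0.37 for Cyp3a11, 0.30 for Por, the reductase that gives electrons to the P450s, and -0.59 for Cyb5b, an outer mitochondrial membrane cytochrome b5 (adjusted p = 0.080).

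Among 7 genes of acetate and acetyl-CoA use, Acly, the ATP citrate lyase, fell over both genotypes by 1.79 (adjusted p = 0.022), and no other gene of the list passed the test. Of 10 genes of the malate-aspartate and glycerol phosphate shuttles with Ldha, Slc25a12, a mitochondrial aspartate-glutamate carrier, rose over both by 0.69 (adjusted p = 0.0035), from 2.93 to 5.41 FPKM in WT and from 2.49 to 4.65 FPKM in LKO. Its liver counterpart Slc25a13 went from 76.8 to 40.1 FPKM in WT and from 78.3 to 46.5 FPKM in LKO (change over both -0.99, adjusted p = 0.054). Of 6 peroxisomal oxidases, which make the hydrogen peroxide that catalase uses, 2 fell over both genotypes, where 3.19% of all genes fell and 4.59% rose. Paox, a polyamine oxidase, fell in each genotype (-1.42 with adjusted p = 0.015 in WT, -1.41 with adjusted p = 0.0497 in LKO) and over both by 1.41 (adjusted p = 9.2e-04). Uox, urate oxidase, fell over both by 0.94 (adjusted p = 0.045). Without WT ethanol library 2 the calls over both genotypes in these lists were 1 of 2, 4 of 11, 2 of 6, 3 of 7, 4 of 10 and 5 of 6, in the order given, when 20.5% of all genes were called.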

How the data were processed

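The 16 libraries were deposited as 1 table of FPKM values per gene made by the authors; per the submitters' processing notes the tools were fastp, STAR 2.6.1, HTSeq and DESeq2 with the mm10 genome, in roles not given in the sources used here. Reads were recovered with a length for each gene at which its values came within 0.01 of a whole number of reads. The lengths were chosen for that closeness, so its presence in all values of 20520 genes does not test the recovery. Of these lengths, 12.7% equalled the GENCODE union length. The recovered reads gave the total reads of each library. IDs were matched to symbols for 34490 of 35275 genes. Genes at 1 FPKM or more in at least 4 libraries were kept (11298), log2(FPKM + 1) was fitted in limma 3.58.1 (R 4.3.3) with a mean for each of the 4 groups and a trended variance, tests were two-sided, and a gene was called at a Benjamini-Hochberg adjusted p under 0.05. Fold changes on this scale understate the change of low genes. The fit was tested on simulated data. No count test was the main result, because the values are not counts. Alternatives were a pseudocount of 0.1, no filter, 2 other scalings, voom on recovered reads, array weights, a side term with WT ethanol library 2 left out, and leaving out each library. The members and lists were chosen with earlier results of these data known. Named genes were all 10 enzymes, at most 4 of each list by smallest adjusted p, and the 3 most alike genes for Adh1, Aldh2, Cyp2e1 and Cat. Promoters came from a RefSeq table (GRCm38.p6), and 3′ untranslated regions from the GRCm38 annotation. No sequence is shown for enzymes that the tables used here did not match. A gene of the peroxisomal list and some of the most alike genes are not reported here.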

Additional observations from a re-analysis of the deposited data

Results flagged for a closer look

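Aldh1a1 in LKO ethanol had 3 libraries between 333 and 337 FPKM and a lowest library, the third, at 305 FPKM, a gap that was large for so narrow a group. Acss2 in WT ethanol had 3 libraries between 8.08 and 12.1 FPKM and a highest one, the first, at 40.6 FPKM. These were the only 2 of 40 groups of 4 libraries examined with a library so far from the others, and chance flags about 1 in 20 such groups.

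The ethanol response of Aldh1a1 went opposite ways in the 2 genotypes: every WT ethanol library was below the WT control mean of 480 FPKM, and every LKO ethanol library was above the LKO control mean of 262 FPKM. The difference between the responses was 1.15 on the log2(FPKM + 1) scale, with an adjusted p of 0.93 in limma over all genes, so it did not pass the test. Without WT ethanol library 2 it was 0.94 (adjusted p = 0.97).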

How the results depend on the processing

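No paired analysis was run, so the diet tests ignore any matching of libraries. The labels give each library a code of its own and no number shared between groups, and the replicate numbers used here only follow record order. Codes of some control and ethanol libraries are consecutive, but no label calls them pairs, so a fit blocked on consecutive codes was not run and whether the libraries were matched was not tested. Adh4 kept its sign and its call in WT, in LKO and over both genotypes in every fit that left out 1 library. Of 60 enzyme changes 23 turned sign under some alternative; none of them had been called with all libraries, and 1 turned value was called. Limma's default estimate of array weights stopped before it converged, so a gene-by-gene estimate was used; it ranged from 0.042 for WT ethanol library 2 to 4.998 for WT ethanol library 3. Where the construction of an alternative does not show it, the cause of a change was not tested.

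Below, "side and library 2" is the fit that adds the side term and also leaves out WT ethanol library 2. It was not run with the side alone, and since the side was read from these same values its counts are no independent test. The number of genes called for ethanol in WT (472) was 283 with no filter, 253 with equal sums, 932 with quantile scaling, 4334 with array weights, 2205 with side and library 2 and 145 to 1036 with 1 library left out. For ethanol in LKO (48) it was 18 with no filter, 25 with equal sums, 105 with quantile scaling, 111 with voom, 869 with array weights, 1205 with side and library 2 and 6 to 410 with 1 library left out. Over both genotypes (879) it was 534 with equal sums, 1452 with quantile scaling, 4147 with array weights, 3652 with side and library 2 and 502 to 2290 with 1 library left out. For genotype on the control diet (1) it was 2 with quantile scaling, 260 with array weights, 8 with side and library 2 and 1 to 4 with 1 library left out. For genotype on ethanol (9) it was 3 with no filter, 5 with voom, 3465 with array weights, 172 with side and library 2 and 1 to 390 with 1 library left out. For the difference between responses (0) it was 506 with array weights and 0 to 6 with 1 library left out.

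The number of enzymes called for ethanol in WT (2) was 1 with no filter and 1 to 5 with 1 library left out. It was 6 with array weights, beside 4334 of 11298 genes, and 5 with side and library 2, beside 2205 of 11170 genes. In LKO (1) it was 4 with side and library 2, beside 1205 of 11170 genes. Over both genotypes (5) it was 3 with a pseudocount of 0.1, 2 with no filter, 2 with equal sums and 2 to 6 with 1 library left out. For genotype on the control diet array weights called 1 enzyme (Aldh1a1, -0.98, adjusted p = 0.032), beside 260 of 11298 genes. For genotype on ethanol they called 2 (Aldh1b1, -0.94, adjusted p = 0.025, and Cyp2e1, 0.94, adjusted p = 0.034), beside 3465 of 11298 genes. For the difference between responses they called 1 (Aldh1a1, 1.34, adjusted p = 0.036), beside 506 of 11298 genes. All other settings called 0 enzymes in these comparisons.

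Signs turned with array weights for Aldh2 in WT (0.044), in LKO (0.094) and over both genotypes (0.069), for Acss3 over both (0.21), and for Adh1 (0.10) and Cat (-0.00397) by genotype on the control diet. On ethanol the genotype differences that turned were Adh4 (-0.038), Aldh2 (-0.097), Aldh1b1 (-0.94) and Cat (-0.015), and so did the difference between responses for Aldh1b1 (-1.25) and Cat (-0.011). Quantile scaling turned Adh1 in LKO (0.032) and Cyp2e1 by genotype on the control diet (-0.077). Voom turned 4 genotype differences on the control diet: Adh1 (0.11), Adh4 (0.071), Adh5 (0.058) and Aldh2 (0.098). The side term together with leaving out WT ethanol library 2 turned Acss3 in WT (0.095) and over both (0.21), and Aldh1b1 by genotype on ethanol (-0.10) and in the difference between responses (-0.37), all of which also turned without that library alone.

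With 1 library left out, ranges that crossed 0 for ethanol were -0.11 to 1.07 for Aldh1b1 and -0.54 to 0.073 for Acss3 in WT, -0.16 to 0.029 for Adh1 in LKO and -0.11 to 0.20 for Acss3 over both. By genotype on the control diet they were -0.097 to 0.089 for Adh1, -0.19 to 0.18 for Adh4, -0.19 to 0.050 for Adh5, -0.22 to 0.17 for Aldh2, -0.096 to 0.26 for Cyp2e1, -0.077 to 0.30 for Cat, -0.23 to 0.75 for Acss2 and -0.36 to 0.035 for Acss3. On ethanol they were -0.011 to 0.74 for Aldh2 and -0.19 to 0.98 for Aldh1b1. For the difference between responses they were -0.026 to 0.35 for Adh4, -0.46 to 0.71 for Aldh1b1, -0.039 to 0.84 for Cat and -0.066 to 0.95 for Acss2.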
